A study of Mus musculus with 2 samples.

Results

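CpG-poor coding promoters are open chromatin regions at the start sites of protein-coding genes where the dinucleotide CpG is scarce. In the gastrocnemius of young mice, 1533 regions met that description, of 32662 regions open in both animals. They were found by merging the peak lists of both libraries and keeping merged regions that held a peak of each. Of these, a member lay within 500 bp of a coding start site and had no coding start site of another gene pointing away from it within 1 kb. Its CpG observed/expected ratio, the number of CpG found over the number that its C and G content predicts, was below 0.5 in the 1 kb around the region's midpoint. Of 11965 coding promoter regions without such a divergent pair, called one-way here, the members made up 12.8% (95% exact Clopper-Pearson interval 12.2 to 13.4%). The other 10432 one-way regions are called CpG-rich here, and 1160 further promoter regions were divergent.

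The study mapped open chromatin by DNase-seq, in which DNase I cuts accessible DNA in isolated nuclei, in the gastrocnemius, a large calf muscle. The samples were 2 male B6CASTF1/J mice aged 36 days, first-generation hybrids of the C57BL/6J and CAST/EiJ strains, with 1 library each. They formed 1 group for which the labels name no treatment, and no control or other tissue was compared. The libraries, replicate 1 and replicate 2, had 50760 and 49230 peaks, and their depth in reads is unknown. With 2 animals of 1 group no test over animals could be made. The intervals below cover counting error over regions or genes only. Nuclei came from whole tissue, so fewer cells of a type and less opening per cell cannot be told apart.

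Most mammalian coding promoters lie in CpG islands, stretches that escape DNA methylation and are open in nearly every cell type. CpG-poor promoters are the textbook setting of genes used in 1 or a few tissues, such as those for contractile proteins, globins, albumin and odorant receptors. Some carry a TATA box, the short AT-rich element that places the transcription machinery upstream of the start. Factors that bind other elements nearby, in muscle those of the MyoD, Mef2, Srf, Tead and sine oculis families, are known to open such promoters in the right cell.

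Sequences of 12 members are printed because they carry the kinds of promoter described below. They cover 3 of the members with the highest peaks, 1 chosen for its TATA box, and members for contraction, excitation, glycogen use, muscle regulators, collagen and vessel wall. Each is the coding strand of mm10, read 5′ to 3′ toward the start site, and holds only the part of the region before the start that no annotated exon covers. Capitals mark bases where footprints of both libraries overlap, however short the overlap. A footprint is a short stretch that the authors called as protected from cleavage inside open chromatin. These bases are the reference genome's, and alleles of CAST/EiJ may differ. The first stretches are those of Tldc1, Nr1d1 and Leprot, which ranked among the 4 highest members by the lower of their percentiles in both animals.

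Tldc1, chr8:119778417-119778580, minus strand: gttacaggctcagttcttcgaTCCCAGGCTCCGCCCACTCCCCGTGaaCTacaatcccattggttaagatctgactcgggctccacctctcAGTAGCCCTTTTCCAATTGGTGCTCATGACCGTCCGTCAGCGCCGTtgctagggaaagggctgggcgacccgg
Nr1d1, chr11:98775334-98775520, minus strand: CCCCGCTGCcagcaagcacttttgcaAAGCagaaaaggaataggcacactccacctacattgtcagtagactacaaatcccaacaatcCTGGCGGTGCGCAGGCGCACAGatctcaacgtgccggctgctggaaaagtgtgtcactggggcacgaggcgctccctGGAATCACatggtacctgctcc
Leprot, chr4:101647161-101647460, plus strand: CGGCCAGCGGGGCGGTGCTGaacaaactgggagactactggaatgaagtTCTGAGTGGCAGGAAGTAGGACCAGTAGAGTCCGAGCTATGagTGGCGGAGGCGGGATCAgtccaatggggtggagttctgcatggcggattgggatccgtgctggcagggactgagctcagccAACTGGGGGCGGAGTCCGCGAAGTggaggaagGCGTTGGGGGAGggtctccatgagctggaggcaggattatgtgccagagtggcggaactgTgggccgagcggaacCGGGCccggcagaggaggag

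Each of these 3 stretches held several separate blocks of overlapping footprints, some of them very short. The Tldc1 stretch had 73 bases in shared footprints, the Nr1d1 stretch 43 and the Leprot stretch 120. In Tldc1 a GC box (GGGCGG, read on the other strand) lay 134 bases before the start and a CCAAT box 61 bases before it, both touching shared footprints. In Nr1d1 a match to the NRF1 motif (GCGCA and GCGC with 1 base between) lay in a shared footprint 91 bases before the start. Leprot had GC boxes in shared footprints 548 and 378 bases before its nearest start site. The next stretches belong to genes of muscle fibres, all with regions in both animals.

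Mybpc2, chr7:44524657-44524844, minus strand: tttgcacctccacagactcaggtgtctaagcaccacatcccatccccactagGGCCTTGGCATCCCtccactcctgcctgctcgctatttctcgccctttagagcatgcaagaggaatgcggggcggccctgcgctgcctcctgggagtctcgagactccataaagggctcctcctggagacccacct
Ckm, chr7:19410801-19411024, plus strand: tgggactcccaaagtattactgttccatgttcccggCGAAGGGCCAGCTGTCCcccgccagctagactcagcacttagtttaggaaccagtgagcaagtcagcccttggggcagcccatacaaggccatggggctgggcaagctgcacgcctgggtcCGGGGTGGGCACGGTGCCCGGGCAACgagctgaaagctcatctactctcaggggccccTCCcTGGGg
Ankrd2, chr19:42035441-42035740, plus strand: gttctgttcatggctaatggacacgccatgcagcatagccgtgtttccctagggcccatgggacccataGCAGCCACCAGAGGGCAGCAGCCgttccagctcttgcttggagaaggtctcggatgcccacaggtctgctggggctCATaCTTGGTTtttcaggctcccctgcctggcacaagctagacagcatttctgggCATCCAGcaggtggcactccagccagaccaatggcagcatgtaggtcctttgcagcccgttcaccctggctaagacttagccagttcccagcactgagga
Kcna7, chr7:45405181-45405360, plus strand: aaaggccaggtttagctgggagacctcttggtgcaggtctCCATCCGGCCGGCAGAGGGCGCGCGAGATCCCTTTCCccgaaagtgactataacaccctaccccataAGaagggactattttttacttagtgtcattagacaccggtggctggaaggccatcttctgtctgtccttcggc
Pygm, chr19:6384261-6384398, plus strand: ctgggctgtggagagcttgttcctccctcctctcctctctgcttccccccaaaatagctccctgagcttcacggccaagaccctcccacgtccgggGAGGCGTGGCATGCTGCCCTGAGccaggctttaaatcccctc
Tead4, chr6:128275578-128275840, minus strand: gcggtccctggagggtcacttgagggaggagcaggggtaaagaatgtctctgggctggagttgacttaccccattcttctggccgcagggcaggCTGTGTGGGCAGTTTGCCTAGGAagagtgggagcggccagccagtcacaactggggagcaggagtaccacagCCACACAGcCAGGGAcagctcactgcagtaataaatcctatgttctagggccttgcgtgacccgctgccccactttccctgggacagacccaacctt

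The Ckm stretch had a CAGCTG E-box, the kind MyoD family factors bind, in a shared footprint 180 bases before the start. Ankrd2 had 2 matches to part of the CTCF motif (CCA, AG and GGC, each 2 bases apart), 486 and 356 bases before its start, and each touched a shared footprint. The Pygm stretch had 1 protected block of 23 bases, and the Mybpc2 stretch 1 of 14 bases. The last 3 stretches show a TATA box and members from the gene lists for other cells of the tissue.

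Acy3, chr19:3986361-3986569, plus strand: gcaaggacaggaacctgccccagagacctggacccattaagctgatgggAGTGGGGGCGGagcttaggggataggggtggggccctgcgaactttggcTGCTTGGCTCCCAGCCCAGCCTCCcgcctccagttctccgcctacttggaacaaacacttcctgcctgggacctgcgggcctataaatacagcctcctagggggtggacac
Col1a1, chr11:94936101-94936223, plus strand: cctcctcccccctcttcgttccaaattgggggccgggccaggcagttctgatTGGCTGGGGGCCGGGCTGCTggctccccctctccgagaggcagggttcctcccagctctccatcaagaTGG
Eng, chr2:32646441-32646594, plus strand: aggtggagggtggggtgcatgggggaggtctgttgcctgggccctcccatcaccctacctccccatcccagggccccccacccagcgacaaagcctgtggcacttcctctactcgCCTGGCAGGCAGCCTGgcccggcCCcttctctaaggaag

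In Acy3, which encodes an aminoacylase, TATAAA began 30 bases before the start and touched no shared footprint. A GC box 155 bases before that start did touch one. In Col1a1 a CCAAT box on the other strand, 73 bases before the start, touched a shared footprint. Eng, for an endothelial receptor of the TGF-beta family, had 3 CpG in its 154 printed bases, and Col1a1 had 4 in 123. The rule read CpG over 1 kb, and 4 of the 12 printed stretches were above its limit by themselves. They were Tldc1 with a ratio of 0.727 (10 CpG), Leprot with 0.671 (17), Kcna7 with 8 CpG in 180 bases, and Nr1d1 with 0.549 (8).

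CpG-poor promoters were open at intermediate levels. Each peak carries the authors' signal height, which was ranked within its library as the share of that library's peaks at or below it. The median member stood at percentile 64.6 in replicate 1 (quartiles 43.6 and 78.7) and 61.9 in replicate 2 (45.1 and 75.4). CpG-rich one-way promoters had medians of 84.5 and 83.7, and divergent promoters 89.4 and 89.4. Distal regions, over 1 kb from every annotated start site, had medians of 53.1 and 51.9. In both animals the members' quartiles thus lay between those of distal regions and of CpG-rich promoters, and the ranges between quartiles overlapped both. On the signal scale the members' median height was 2.42 in replicate 1 and 1.73 in replicate 2, against 5.04 and 3.58 for CpG-rich promoters. All regions open in both animals had median percentiles of 64.9 and 65.0 and median heights of 2.44 and 1.88, near those of the members.

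**Figure D1:**
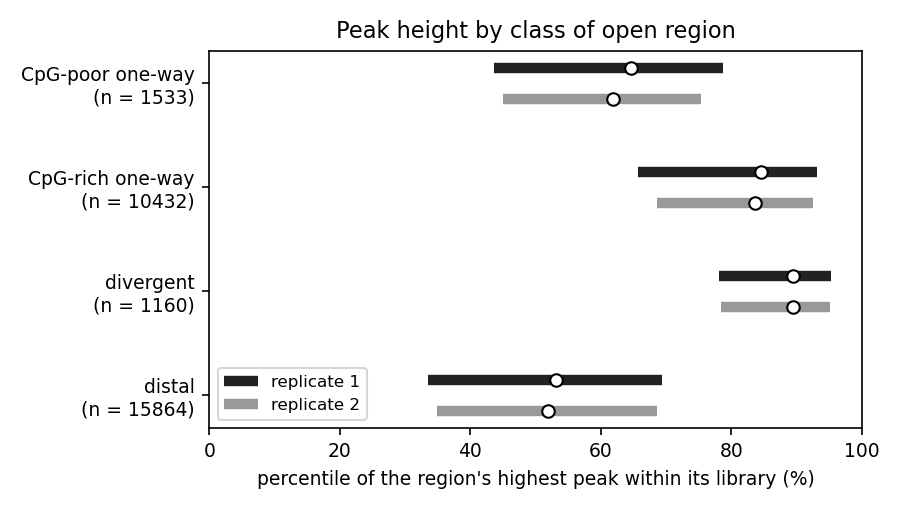
Percentile of each region's highest peak within its library (x axis, %) for 4 classes of region open in both animals. Bars span the lower to the upper quartile of the regions and circles mark the median, with replicate 1 dark and replicate 2 grey; CpG-poor promoters (medians 64.6 and 61.9) lie between distal regions and CpG-rich promoters in both libraries.

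High peaks were rare among the members. Both libraries had a percentile above 90 at 62 members, 4.04% (3.11 to 5.15%), against 27.3% of CpG-rich and 39.6% of divergent promoters and 1.53% of distal regions. Over all regions open in both animals the share was 11.7%. Members were also narrower, with a median width of 260 bp against 300 bp for CpG-rich promoters. Their median CpG ratio was 0.378, which the rule fixed to be low, against 0.774, and their median G and C content was 53.8% against 61.3%. At the limit of the rule, the members just inside were the regions at Nckap5 (ratio 0.499853, heights 2.71 and 1.40) and Fam222b (0.499667, 9.23 and 3.79). Just outside were Slc52a3 (0.500273, 3.96 and 3.37) and Rab3il1 (0.500296, 9.96 and 4.97). The label held at the start sites themselves for 90.7% of members, where the 1 kb around the nearest start was also below the limit. The other 142 members lay beside a start site at or above it, Leprot and Actb among them.

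By distance, members lay about the start site much as CpG-rich promoters did. The median midpoint lay at -14 bp from the nearest coding start (negative is upstream), against -17 bp for CpG-rich promoters. Within 100 bp of the start lay 58.3% of members and 59.2% of CpG-rich regions. The start itself fell inside the region for 69.2% of members and 77.0% of CpG-rich regions. By midpoint, 529 members lay in an untranslated exon, 366 in an intron, 78 in a coding exon and 560 outside annotated transcripts. The intron share was 23.9% (21.8 to 26.1%) against 16.4% (15.7 to 17.2%) of CpG-rich promoters, and the share outside transcripts 36.5% (34.1 to 39.0%) against 46.5% (45.5 to 47.4%).

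**Figure D2:**
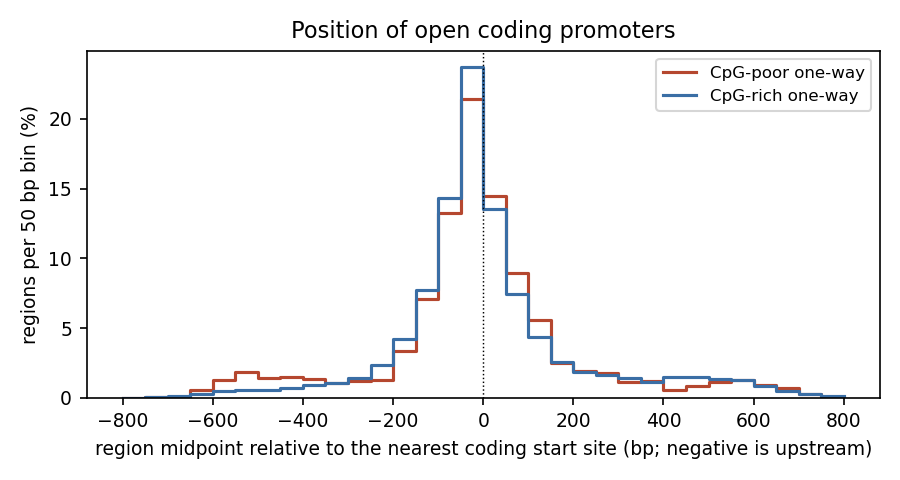
Position of region midpoints relative to the nearest coding start site (x axis, bp, negative is upstream) as the percent of regions per 50 bp bin (y axis), for CpG-poor (red) and CpG-rich (blue) one-way promoters. Both distributions peak just upstream of the start, with medians of -14 and -17 bp.

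The highest members included genes of the circadian clock. Tef, a transcription factor of the PAR bZIP family whose level cycles through the day, ranked first, with heights of 21.3 in replicate 1 and 10.6 in replicate 2 (percentiles 99.9 and 99.4). Nr1d1, the clock's repressor REV-ERB alpha, came behind Tef and Tldc1, with heights of 16.1 and 10.4 (percentiles 99.2 and 99.4). Per1, a core clock repressor, had 2 member regions at internal start sites, downstream of the gene's first one, with heights of 13.7 and 7.79 at one and 11.0 and 4.01 at the other. All of these stood in the top 5% of replicate 1, and the second Per1 region was lower in replicate 2, at percentile 86.2. The clock list holds 16 genes, and 14 of its 15 genes with a CpG-rich start site were open too, so these members are not the clock genes as a whole. The time of day at which tissue was taken is not given in the sources used here.

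The other high members had varied functions. Tldc1 had heights of 16.9 and 11.6. Leprot, for a protein that shares its start region with the leptin receptor gene and retains receptors inside the cell, had 16.0 and 16.5, the highest member of replicate 2. Cyp4f13, a cytochrome P450 that hydroxylates fatty acids, had 15.4 and 8.79. These 3 stood above percentile 98 in both animals. Zbtb7b, a transcriptional repressor best known from T-cell lineage choice, had 16.8 and 8.37. Pxmp4, a peroxisomal membrane protein, had 14.1 and 10.8. Cyb5a, cytochrome b5, had 14.1 and 7.95. Lmna, which encodes the nuclear lamins A and C, had 12.3 and 7.93 at an internal start site. Atp2b4, a plasma membrane calcium pump, stood at percentiles 97.0 and 98.8, and Lysmd4 at 97.0 and 96.6. None of these 12 top regions was under percentile 96 in either library.

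At the other end, the lowest members stood at the very bottom of replicate 1. Galnt5, a glycosyltransferase, had heights of 0.358 and 0.723 (percentiles 0.0690 and 21.9). Srpx had 0.395 and 0.447, Brwd3 0.431 and 0.624, and B3gnt5 0.468 and 0.407. None of these 4 had a footprint shared by both libraries. The lowest CpG ratios did not go with 1 height. 4931408C20Rik, with no CpG in its 1 kb, had heights of 0.838 and 0.749, whereas Iqcn, with a ratio of 0.0699, had 5.79 and 3.72 (percentiles 86.9 and 84.6). Dab2ip, Clec3b, Gbp9 and Msantd1 had ratios from 0.0449 to 0.0717 and percentiles from 32.3 to 71.9.

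Of all 21851 coding genes, 53.9% had an open promoter region in both libraries. Taken by gene, 9177 genes have only start sites with a CpG ratio below 0.5, called CpG-poor genes here, and 1145 of them, 12.5%, had one. Among the other 12674 genes the share was 84.0% (83.3 to 84.6%). CpG-poor genes were thus mostly closed in this tissue, and the lists below are read against 12.5%. A CpG-poor gene can be open through a region that is not a member, as Actn3, Cryab and Cspg4 were, and a gene with a further CpG-rich start site can still hold a member.

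The share open was larger over the muscle fibre lists. Over 7 lists of contractile, excitation, metabolic, regulatory and neuromuscular junction genes, 42 of 101 CpG-poor genes were open in both animals, 41.6% (31.9 to 51.8%), and 33 in neither. Another 15 were open in replicate 1 alone and 10 in replicate 2 alone, against 2.27% and 2.35% of all CpG-poor genes. Tcap, which caps titin, had a region of each library but none that held both. The 55 member regions of these lists had median percentiles of 63.4 and 58.5, close to all members, and none was above 90 in both libraries.

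**Figure D3:**
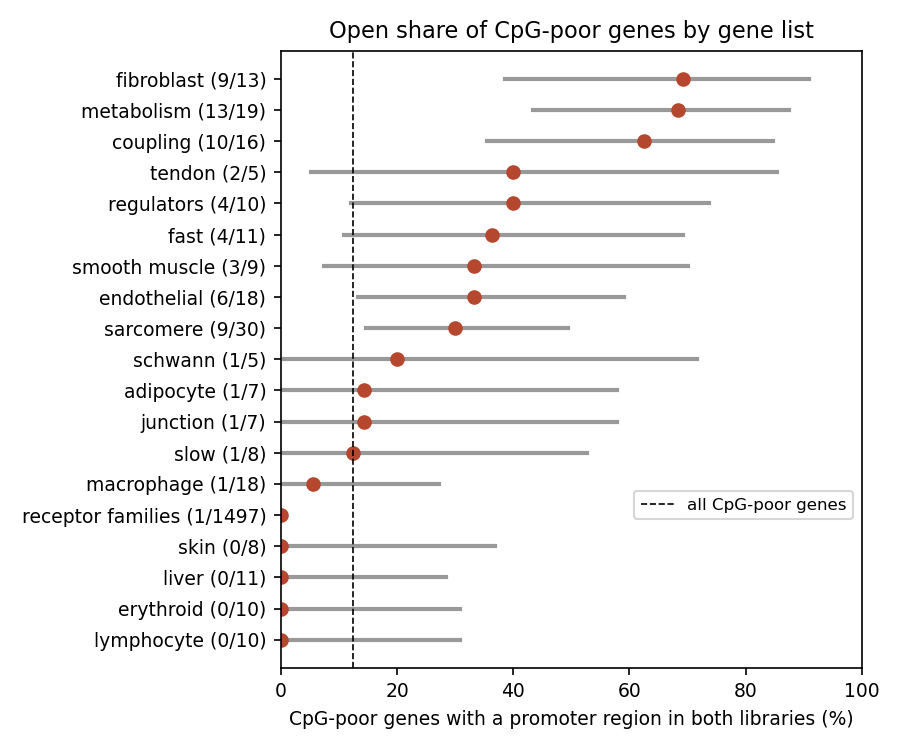
Percent of CpG-poor genes with a promoter region open in both libraries (x axis) for each gene list with at least 5 CpG-poor genes, with open and total genes in brackets. Points are shares, bars exact 95% intervals, and the dashed line is the share over all CpG-poor genes, 12.5%; the fibroblast, metabolism and coupling lists lie highest, and the points of the blood, liver, skin and receptor lists lie below the line, with the receptor interval alone wholly below it.

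Genes of energy metabolism had the largest share open of the fibre lists, with an interval that overlaps those of the others, 13 of 19 CpG-poor genes or 68.4% (43.4 to 87.4%). Tpi1, a glycolytic enzyme, had heights of 7.85 and 4.75 at the higher of its 2 member regions. Pygm, the muscle glycogen phosphorylase lost in McArdle disease, had 6.68 and 3.97. Gapdh, which has a further start site at or above the limit and so is not among the 13, had 6.99 and 3.71 at the higher of 2 regions. These 3 all stood above percentile 84 in both animals. Cox7a1, the muscle and heart form of a cytochrome oxidase subunit, had 6.65 and 3.71. Pfkm, muscle phosphofructokinase, which is not among the 13 for the same reason as Gapdh, had 4.01 and 2.69. Cox6a2, another muscle form of a cytochrome oxidase subunit, was the lowest member of the list, at 0.986 and 0.723. The list's members ran from percentile 17.0 to 91.7 in replicate 1, and all 20 of its genes with a CpG-rich start site were open as well.

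Excitation and calcium handling came next, with 10 of 16 CpG-poor genes open, 62.5% (35.4 to 84.8%). Kcna7, a voltage-gated potassium channel, had heights of 2.58 and 3.06. Ryr1, the calcium release channel of the sarcoplasmic reticulum, had 3.25 and 1.72. Jph2, a junctophilin that holds the reticulum to the surface membrane, had 2.97 and 1.67, and Cacna1s, the voltage sensor that triggers Ryr1, had 2.05 and 1.32. Jsrp1, Sgca and Stac3 were open in replicate 1 alone, and Scn4a, Sln and Trdn in neither. The members of this list had percentiles from 32.0 to 74.8 in replicate 1 and from 38.1 to 79.98 in replicate 2, short of the highest metabolic ones.

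The sarcomere list had 9 of 30 CpG-poor genes open (95% interval 14.7 to 49.4%). Ckm, muscle creatine kinase, was the highest, with heights of 6.45 and 3.37 (percentiles 88.7 and 82.3) and 4 shared footprints. Acta1, skeletal alpha-actin, had 4.52 and 1.91. Ankrd2, a stretch-responsive ankyrin repeat protein, had 3.66 and 2.96. Both of these lay over percentile 65 in each animal. Ttn, titin, had 2.39 and 1.65, and Synpo2l 2.88 and 1.39. Neb, Ldb3, Myoz1 and Klhl40 were open in replicate 1 alone, and 5 further genes in replicate 2 alone.

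The fast and slow fibre lists were too short to be told apart from each other or from the other fibre lists. Of 11 fast CpG-poor genes 4 were open in both animals, 36.4% (10.9 to 69.2%), and of 8 slow ones 1 was, 12.5% (0.316 to 52.7%), so the intervals overlap widely. Atp2a1, the fast-fibre calcium pump SERCA1, had heights of 3.66 and 1.62. Tnni2, fast troponin I, had 3.21 and 1.80, and Mybpc2, fast myosin-binding protein C, had 3.06 and 1.87. All 3 ranked higher in replicate 1 than in replicate 2, which was not particular to fast genes. Median percentiles were 69.5 and 56.0 for the members of the sarcomere list, and 59.0 and 49.8 for those of the excitation list. They were 66.2 and 55.9 for those of the fibroblast list. Casq1, Myl1, Tnnc2 and Tnnt3 were open in replicate 1 alone and no fast gene in replicate 2 alone. The fast myosin heavy chains Myh1, Myh2 and Myh4 were open in neither at the authors' threshold, and neither were Myh7, Myl2, Tnnc1, Tnni1 and Tnnt1 of the slow list. Casq2, the open slow gene, had 1.59 and 1.08.

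Among muscle regulators 4 of 10 CpG-poor genes were open (95% interval 12.2 to 73.8%). Myod1, the founding myogenic factor, had heights of 2.85 and 1.45, and Mustn1 2.34 and 1.91. Tead4, a Hippo pathway factor that binds the MCAT element, had 3.65 and 1.99 at an internal start site. Nfix, a driver of fetal muscle genes, had a pair of member regions at 2.33 and 1.93 and at 3.88 and 1.76. Tead4 and Nfix each have a further start site at or above the limit, so neither is among the 4. Nfix also had 11 distal open regions inside it or up to 10 kb beyond its ends, the most of the list's members. Myog, Myf5 and Myf6, the other myogenic factors, were open in replicate 2 alone. Of the 7 CpG-poor genes of the neuromuscular junction list 1 was open in both animals, Rapsn (2.22 and 1.41), which clusters acetylcholine receptors, and 5 of the list's 6 other genes were open too.

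**Figure D4:**
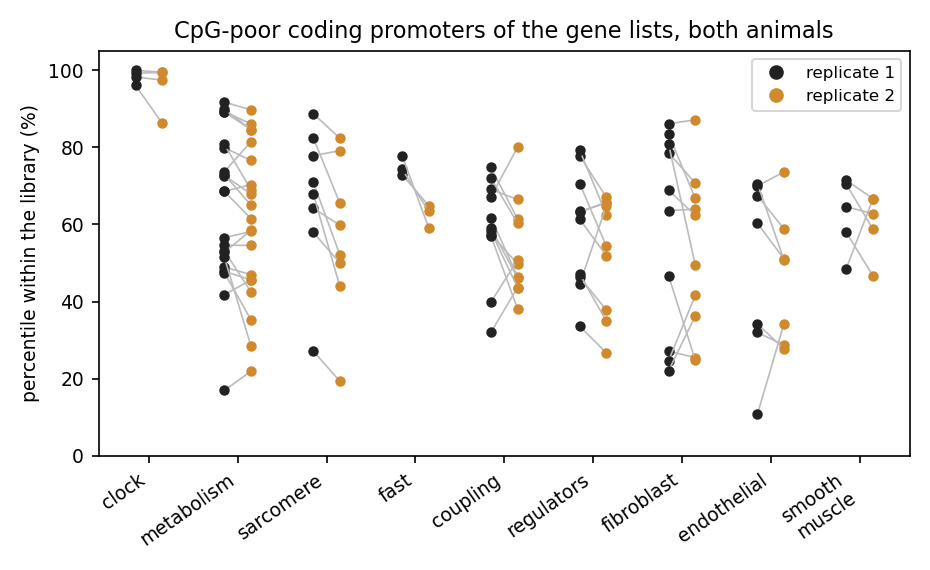
Percentile within the library (y axis, %) of each CpG-poor promoter region of 9 gene lists, with replicate 1 dark, replicate 2 orange, and a line joining the 2 values of a region. Clock regions lie at the top (86.2 to 99.9) and metabolism regions spread over most of the range. The 3 fast-fibre regions all fall from replicate 1 to replicate 2, and the medians of the other lists shown fall too.

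Genes on the lists for other cells of muscle were also open. Over 7 lists of resident cells, 23 of 60 CpG-poor genes were open, 38.3% (26.1 to 51.8%). Fibroblast and matrix genes led, with 9 of 13 open, 69.2% (38.6 to 90.9%). Col1a1, the main chain of collagen I, had heights of 5.51 and 4.17 (percentiles 86.1 and 87.1). Cd34, a surface marker of these progenitors and of endothelium, had 3.77 and 2.21. Serping1, an inhibitor of complement, had 4.73 and 1.98 at its higher region. Col3a1 had 2.35 and 1.83 and Dpt, dermatopontin, 2.71 and 1.75. Col1a1 was thus nearly as high as Ckm in replicate 1 and higher in replicate 2.

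Endothelial genes had 6 of 18 CpG-poor genes open, 33.3% (13.3 to 59.0%). Eng had heights of 2.80 and 2.43, Aqp1, a water channel, 2.18 and 1.35, and Esam, a junction protein, 2.85 and 1.35. Egfl7, which has a further start site above the limit, had 2.60 and 1.61. Tie1 had 1.28 and 0.861. Pecam1, Icam2 and Erg, which define the cell type, were open in neither library, and Cdh5 in replicate 1 alone. In smooth muscle and pericytes 3 of 9 were open, among them Pdgfrb (2.92 and 1.97) and Myh11 (2.42 and 1.77), while Acta2, Tagln and Cnn1 were open in neither. Of satellite cell genes Cdh15 was open (2.02 and 1.45), 1 of 3. Tendon had 2 of 5 open (Tnc and Col11a1), and adipocytes 1 of 7 (Plin4, with 3.43 and 1.19), with Lipe as a further member (3.53 and 1.52). Schwann cells had S100b open (1.22 and 0.815), 1 of 5. How far each cell type contributes to the members was not tested.

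Few CpG-poor genes of blood and of other tissues were open, but these lists are short and their intervals include the 12.5% of all CpG-poor genes, except that of the receptor families. Of 38 macrophage, lymphocyte and erythroid genes 1 was open in both animals, 2.63% (0.0666 to 13.8%). It was Coro1a, an actin-binding protein of leukocytes, with heights of 1.41 and 1.87 and no shared footprint. The alpha and beta globin genes were open in neither library. All 11 matched liver genes and all 8 skin genes, Alb and Krt5 among them, were open in neither. Of neuronal genes Camk2a was open, at an internal start site, with 2.88 and 2.56. Of 1497 CpG-poor odorant, vomeronasal and taste receptor genes 1 was open, 0.0668% (0.00169 to 0.372%), namely Olfr433, whose heights were 2.28 and 0.894.

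No gene on the housekeeping list of 14 was a CpG-poor gene, and all 14 were open. Actb alone of them held a member, a region whose midpoint lay 613 bp upstream of its CpG-rich start, with heights of 1.87 and 2.09. The class of the region and the class of the gene differ there. Gapdh and Tpi1, which also hold members, stand on the metabolism list, so the housekeeping counts depend on how the lists were drawn.

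Part of the members marked an internal start. For 365 members, 23.8% (21.7 to 26.0%), no start in reach was the most upstream coding start of its gene, which is called an internal start here. That share was 9.42% of CpG-rich and 1.55% of divergent promoters. Of the 365, 218 belonged to a gene with another open region of the CpG-rich or divergent class, 59.7%. Their median percentiles, 65.6 and 60.8, were close to those of the other 1168 members, 64.2 and 62.0. Examples are Per1 and Lmna above, and H2-DMa, a chaperone of antigen loading, at percentiles 97.0 and 95.3. Plec, for the cytolinker plectin, which uses many alternative first exons, had 5 member regions, the most of any gene, with heights from 2.03 to 7.38 in replicate 1 and from 1.505 to 4.88 in replicate 2. Plec was named after its values were seen. In all, 121 of 1403 genes had more than 1 member region.

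TATA boxes were infrequent. TATAAA on the coding strand, 40 to 20 bases before a coding start in reach of the region, was found at 32 members, 2.09% (1.43 to 2.93%). The share was 0.968% (0.789 to 1.18%) of CpG-rich promoters. Counted by start site instead of by region, 1.70% of all 41409 coding start sites had one, and 2.94% of the 18912 start sites below the CpG limit, open or not. The highest members with a TATA box were Cabyr (heights 8.14 and 7.15), Acy3 (3.67 and 3.53) and Ankrd2 (3.66 and 2.96). The window is placed by the start site, so a box can lie outside the open region. That of Ankrd2 did, as its region's midpoint lay 419 bp upstream of the nearest start and the region ended before the box. Palld (4.59 and 2.60), for the actin-bundling palladin, Agt (3.43 and 2.43), for angiotensinogen, and Tsc22d3 (4.02 and 2.07), for the glucocorticoid-induced protein GILZ, followed in height. None of the 6 fell under percentile 68 in either animal. Other forms of the element were not searched, and no match says only that these letters were not in the window.

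Short motifs, 23 in all, were searched on both strands in the 300 bp around each region's midpoint. Median widths were 260 bp for members, 300 bp for CpG-rich promoters and 200 bp for distal regions. The window thus took in flanking bases of narrower regions, by an amount that differs between the classes. CpG-poor promoters stood nearer to distal regions than to CpG-rich promoters for many of the motifs. The CAGCTG E-box was found in 29.3% of members, against 15.8% of CpG-rich promoters, 32.6% of distal regions and 25.8% of all regions open in both animals. MEF2 motifs (searched by name, as the degenerate consensus) were in 2.80% of members, 0.738% of CpG-rich promoters and 2.89% of distal regions. The Tead element CATTCC was in 15.3%, 9.30% and 17.8%, and the sine oculis family motif TCANGTTTC in 1.24%, 0.556% and 1.47%. For these 4 muscle motifs the member share lay close below the distal share. Over all regions open in both animals MEF2 motifs were in 2.07%, CATTCC in 14.3% and TCANGTTTC in 1.11%. Each of these shares lay inside the members' exact interval (2.04 to 3.76%, 13.5 to 17.2% and 0.748 to 1.93%). Of the 4, CAGCTG alone had a member interval, 27.0 to 31.6%, wholly above the share of all regions. The Srf CArG box, also searched by name, was near level at 1.17%, 0.978% and 1.45%.

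Motifs of widely used factors ordered the classes in different ways. AP-1 sites (TGANTCA) were in 6.91% of members, 3.07% of CpG-rich promoters and 13.5% of distal regions. NFI sites (TGGC and GCCA, 5 bases apart) were in 2.35%, 0.815% and 4.03%, and glucocorticoid receptor sites (GNACA and TGTNC, 3 bases apart) in 0.848%, 0.201% and 1.30%. CTCF matches were in 6.78%, 3.61% and 20.4%. Members held a place between CpG-rich promoters and distal regions for all 4. Over all regions open in both animals the shares were 8.85% for AP-1, 2.69% for NFI, 0.854% for the glucocorticoid receptor and 13.0% for CTCF. Those of AP-1 and CTCF lay above the members' exact intervals (5.70 to 8.30% and 5.58 to 8.16%). Those of NFI and the glucocorticoid receptor lay inside the members' intervals. The Runx element TGTGGT (14.9%, 9.08% and 20.2%), the Gata element AGATAA (5.09%, 2.57% and 8.91%), the Fox element TGTTTAC (3.46%, 1.83% and 3.66%), the D-box TTANGTAA (1.37%, 0.729% and 2.07%) and TATAAA anywhere in the window (6.13%, 3.11% and 8.15%) gave the same order. The PU.1 element AGAGGAAGT did not, at 1.30%, 0.652% and 0.933%. Over all regions open in both animals the Runx element was in 15.4%, the Gata element in 6.22% and the Fox element in 3.01%. The D-box was in 1.48% of them, TATAAA in 5.90% and the PU.1 element in 0.860%. Each of these shares lay inside the members' exact interval. The element of estrogen-related receptors, TCAAGGTCA, was in 4 members.

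Elements that contain CpG were scarcer in members than in CpG-rich promoters, a difference the CpG rule bears on directly. GC boxes were in 43.6% of members and 76.2% of CpG-rich promoters, but 16.1% of distal regions. The ETS element CCGGAAG was in 7.70% against 18.2%, NRF1 in 23 members (0.953 to 2.24%) against 11.2%, and the cAMP element TGACGT in 6.26% against 11.7%. The YY1 motif was in 3 members against 2.41%. CACGTG, the E-box of clock and Myc factors, was in 6.26% against 10.5%. The CCAAT box, CCAAT, which has no CpG, was in 35.9% and 33.6%, which lie close to each other. Over all regions open in both animals GC boxes were in 41.0%, CCGGAAG in 9.22%, NRF1 in 4.81% and TGACGT in 7.47%. The YY1 motif was in 1.01% of them, CACGTG in 7.72% and CCAAT in 31.8%. Motif matches can overlap one another, and the base composition of the classes differs, so a match here is a count of letters.

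**Figure D5:**
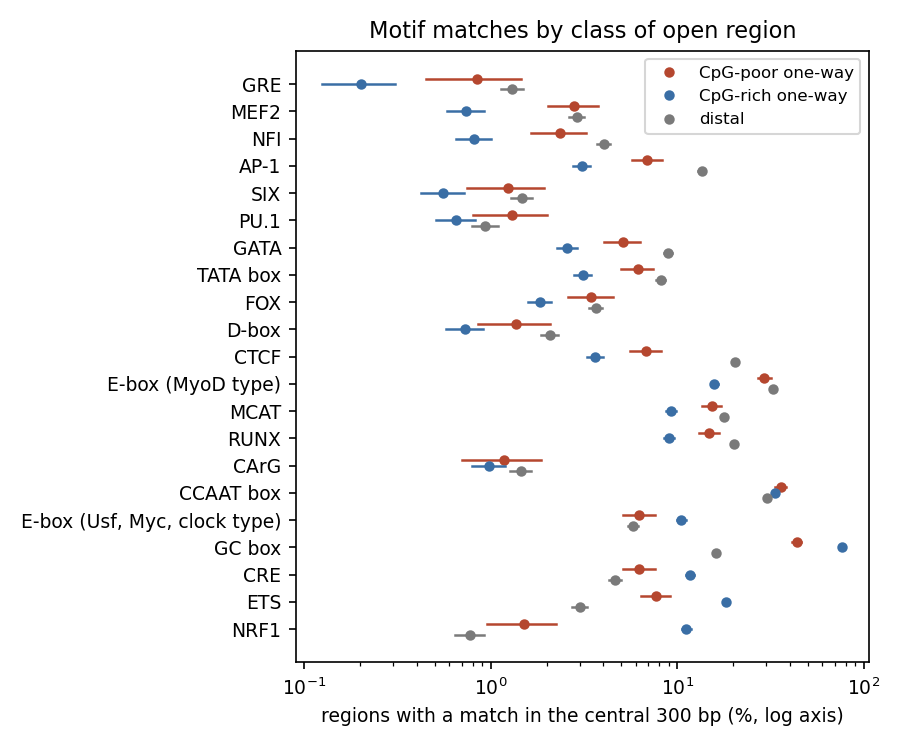
Percent of regions with a motif match in the 300 bp around the midpoint (x axis, log scale) for CpG-poor promoters (red), CpG-rich promoters (blue) and distal regions (grey), with exact 95% intervals. Motifs are ordered by the ratio of the CpG-poor to the CpG-rich share. Members lie near distal regions for MEF2 and the MyoD-type E-box (29.3% against 32.6%), and GC boxes fall from 76.2% in CpG-rich promoters to 43.6%.

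High members with these motifs in the window around their midpoint show where they lie. The MEF2 match was found at Lmna and at the second Per1 region. Tef and Cyp4f13 held a CAGCTG E-box, and Leprot and Zbtb7b the CATTCC element. A CArG box was found at Gstp1 (heights 6.57 and 4.19), a glutathione transferase, and at Trip6 (5.21 and 4.61). The sine oculis motif was found at AW209491 (8.35 and 5.55) and Fkbp7 (5.02 and 4.13). Among muscle genes, the windows of Ckm and Pygm held CAGCTG, that of Pygm outside its printed stretch. The Acta1 window held a CAGCTG E-box, a CArG box, a CATTCC element, a GC box and a TATAAA.

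Footprints called in both animals gave a narrower view. Of the members 1249, 81.5% (79.4 to 83.4%), held a footprint of replicate 1 that overlapped one of replicate 2 by at least 1 bp. The share was 86.1% of all regions open in both animals and 86.9% of CpG-rich promoters. An overlap this short need not be the same protected site, and how many overlaps would arise at random was not estimated. At matched height the order was the opposite in the lower 4 of 5 bins. Members were split into 5 bins of 20 percentile points by the lower of their percentiles. From the lowest bin to the highest, 41.9%, 67.4%, 80.7%, 94.3% and 99.1% of members held a shared footprint. CpG-rich promoters gave 26.0%, 50.4%, 71.9%, 91.3% and 99.4%. In the 3 lowest bins the members' interval lay wholly above that of CpG-rich promoters (from 40 to 60 points, 76.5 to 84.5% against 69.2 to 74.5%), and in the upper 2 the intervals overlapped, with CpG-rich promoters slightly the higher in the top bin. The CpG-rich regions were the wider in those 3 bins, with a median of 337.5 bp against 240.5 bp in the lowest. The lower pooled share thus went with more members at low heights.

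The members with most shared footprints were Dusp19, a phosphatase, with 8, Leprot and Hoga1 with 7 each, and Nr1d1 with 6. Dusp19 had heights of 6.26 and 7.08 and Hoga1, a mitochondrial aldolase of hydroxyproline breakdown, 3.64 and 3.33. Stretches where footprints of both libraries overlapped numbered 2692 in members and 30768 in CpG-rich promoters. With 5 bases added on each side, 15.2% of the members' stretches held a GC box, against 24.7%. A CAGCTG E-box was in 2.49% (1.93 to 3.15%) of them, against 0.689%, a CTCF match in 2.23% against 0.510%, and an NFI site in 1.04% against 0.192%. NRF1 went the other way, 0.706% against 3.78%. These shares are set against CpG-rich promoters alone, with no share for distal regions. In the 300 bp windows CAGCTG and CTCF matches were more frequent in distal regions (32.6% and 20.4%) than in members (29.3% and 6.78%). No stretch in members held a MEF2, sine oculis or glucocorticoid receptor match in full, which allows a share of up to 0.137% by the exact interval. A stretch is short, and a long motif fits in fewer of them.

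Members hold a peak of both libraries by rule, so recurrence was counted over CpG-poor promoters of either library. Pooled over heights, these recurred less often than CpG-rich promoters. By the same rule applied to merged regions of either library, 2590 CpG-poor promoters were found, of which 1533 held a peak of both, 59.2% (57.3 to 61.1%). Replicate 1 alone had 463 and replicate 2 alone 594. For CpG-rich promoters 76.4% recurred. By height, 46.3%, 56.4%, 74.5%, 93.5% and 99.7% of CpG-poor promoters of replicate 1 recurred in replicate 2 from the lowest bin to the highest, against 51.0%, 67.5%, 81.4%, 90.3% and 98.4% of CpG-rich ones. From replicate 2 to replicate 1 the shares were 19.0%, 51.3%, 80.1%, 96.5% and 100%, against 19.3%, 42.4%, 69.7%, 94.5% and 99.4%. At matched height the order of the classes therefore depended on the animal from which the count started and on the bin.

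Most members ranked alike in both animals. Across the 1533 regions, which share both libraries and so are not independent, Spearman's rho of the percentiles was 0.847. The percentiles differed by over 20 points at 210 members, 13.7%, against 9.22% of CpG-rich promoters. These shares were not matched for height. Where both percentiles are above 80 so large a gap cannot occur. That was the case for 216 of the 1533 members and for 5511 of the 10432 CpG-rich promoters. Of the 210 members, 83 ranked higher in replicate 1 and 127 in replicate 2. Zfp106 (percentiles 79.4 and 29.6), a zinc finger protein of muscle and nerve, Tmcc1 (58.8 and 15.9) and Ms4a4d (71.6 and 29.3) stood furthest toward replicate 1. Sspn, sarcospan of the dystrophin complex (33.1 and 79.8), C1ra, a complement protease (14.5 and 61.1), and Casp8, an apoptotic protease (9.54 and 54.9), stood furthest toward replicate 2. With 1 library per animal, animal and library cannot be told apart in any of these.

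Distal open regions near the members were few. No distal region lay in the gene or within 10 kb either side for 51.6% of members and 57.3% of CpG-rich promoters. The median was 0 in both classes and 1 within 50 kb. Tead1 (1.66 and 0.986), a further Hippo pathway factor, had 7 and Asb2 (1.64 and 1.04), a muscle ubiquitin ligase subunit, had 6, though the promoter regions of both stood under percentile 50 in each animal.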

How the data were processed

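Data were DNase-seq libraries of 2 mice, 1 group. Per the labels, positions are on mm10. Not given in the sources used here are the aligner, the callers of peaks and footprints, and the alignment of CAST/EiJ alleles. The authors deposited peaks per library with a signal height whose scaling is not stated, so heights were compared within a library only, as percentiles. The deposited q-value files list runs of bases with a q-value up to 0.0500. The deposited footprint score was 0.01 throughout, and only footprint positions were used. The shorter peak list of each library was used. Depth is unknown.

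Peaks of both libraries were merged at an overlap of 1 bp or more, on chromosomes 1 to 19, X and Y. Start sites came from coding transcripts of the basic set of GENCODE release 21 for mouse. The genome was GRCm38.p6. Python 3.11.15, pandas 2.3.3, scipy 1.17.1 and pysam 0.24.0 were used, and the functions were tested on simulated data. Motifs were exact matches. Intervals are exact Clopper-Pearson at 95%. Alternatives changed the CpG limit and window, start site distance and set, peak list, overlap and height, and left out each library.

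The members and gene lists were chosen with earlier results of these data known. Symbols of the lists matched GENCODE except Tf. Named regions were the 12 highest and 4 lowest by the lower percentile, the 6 lowest in CpG, the 3 with the largest gap each way, the 4 with most shared footprints, the 5 highest per list, the 6 highest with a TATA box, the 2 highest per muscle motif and the 2 nearest the CpG limit on each side. Genes named as closed or open in 1 library, further list members named beside their list, Plec, H2-DMa and the printed stretches were chosen after their values were seen. Stretches had to lie before the start, outside exons and off chromosome 18. One gene that the rule names is not reported here.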

Additional observations from a re-analysis of the deposited data

How the results depend on the processing

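The TATA share stayed inside its interval under all 13 alternatives (1.49 to 2.82%). The number of members moved by over 1.5 times to 886 at a CpG limit of 0.4, 2745 at 0.6, 2324 with the longer peak lists and 922 with peaks at or above the median height. Without 1 replicate it was 2050 to 2120. Their share of one-way promoters was 7.40% and 22.9% at those limits, 10.7% with a CpG window of 300 bp, 16.5% with the longer lists, 9.62% with high peaks, 15.2% and 12.2% with start sites within 1000 and 250 bp, 14.2% with all coding transcripts, 11.8% without members whose own start site is at or above the limit (chosen after seeing the data), and 14.1 to 14.7% without 1 replicate. Median percentiles of replicate 1 and replicate 2 were 62.5 and 58.9 at 0.4, 70.0 and 67.0 at 0.6, 68.2 and 68.8 with the longer lists, 76.3 and 72.0 with high peaks, and 68.8 and 65.1 with a reciprocal overlap of 50%. The replicate 1 median was 62.5 with the 300 bp window. Without replicate 2 the replicate 1 median was 55.6, and without replicate 1 the replicate 2 median was 52.1. The share with a shared footprint was 83.6% at 0.6, 64.6% with the longer lists, 93.5% with high peaks and 85.4% with reciprocal overlap. Keeping only peaks at or above the median height raises the median percentiles by construction. The members' median percentiles also depended on the CpG limit, and what made the other shifts was not tested. The counts by gene list, motif and recurrence were run under the main settings alone. No paired analysis was possible because there is 1 group. A promoter called closed had no peak in the authors' shorter list, and with the depth unknown a weak opening may be missed.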

Other observations

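CpG-poor genes outside the lists were counted by symbol prefix, for 6 prefixes chosen after values of the members were seen, so the counts are a description. Of 123 CpG-poor genes whose symbol begins with Zfp, which marks zinc finger proteins, 64 had a promoter region open in both animals, 52.0% (42.8 to 61.1%), against 12.5% of all CpG-poor genes. Zfp108, Zfp52 and Zfp729a are among them. Many Zfp genes are KRAB repressors that lie in clusters of similar genes, and reads of similar copies may not be told apart; how the authors placed such reads is not given in the sources used here. Of 28 CpG-poor collagen genes (prefix Col) 15 were open, 53.6% (33.9 to 72.5%), among them Col6a1, Col6a2, Col6a3, Col6a5 and Col6a6 of the collagen VI that surrounds muscle fibres. The other 4 prefixes lay at or under the background. They were solute carriers (Slc, 16 of 136, 11.8%), interleukins and their receptors (Il, 7 of 63, 11.1%), cytochromes P450 (Cyp, 6 of 87, 6.90%) and keratins (Krt, 1 of 46, 2.17%, namely Krt80).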
